A study of Homo sapiens with 6 samples.

Results

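The fibroblast growth factor (FGF) family was examined through 8 genes: the ligands FGF1, FGF2, FGF5 and FGF7, the receptors FGFR1, FGFR2 and FGFR3, and the receptor-like gene FGFRL1. They were taken as every probe set that the platform annotation of the array assigns to 1 of these gene symbols and no other, which gave 33 of the 54675 probe sets in the table. FGFR2 had 11 of them and FGFR1 had 7, while FGF1, FGF5 and FGF7 had 3 each, and FGF2, FGFR3 and FGFRL1 had 2 each. A further probe set annotated to FGF7 together with related copies of that gene was left out.

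Tumours of U87-EV cells were grown under the skin of female BALB/c SCID mice, a strain with severe combined immunodeficiency; the mice were 6 to 8 weeks old when cells were implanted in Matrigel. U87 is an established human glioblastoma line, and the labels do not explain EV. Mice of the treated group received bevacizumab at 10 mg/kg into the peritoneum every 3 days from a tumour volume of 150 to 200 mm3 until tumours were about 15 to 30 mm across, and mice of the control group received saline. Bevacizumab is an antibody against human VEGFA, vascular endothelial growth factor A, and binds the mouse protein only weakly. Each group began with 5 mice and is represented by 3 arrays. The labels do not state that the arrays came from separate mice, so p-values reflect only array-to-array spread, some of which may be technical. The host keeps its own mouse blood vessels and stroma, and RNA of mouse cells was not separated from RNA of the human tumour cells.

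FGF ligands are secreted proteins that bind heparan sulfate chains on the cell surface and in the matrix, and through them pair receptor tyrosine kinases. The activated receptor phosphorylates the adaptor FRS2, which feeds the RAS to ERK cascade, and that cascade induces its own inhibitors of the Sprouty and DUSP families. FGF2 is a classical mitogen of endothelial cells, and FGF signalling is known as an escape route when VEGF is blocked. FGF7, also called keratinocyte growth factor, is typically made by mesenchymal cells and acts on the epithelial splice form of FGFR2.

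Values are the authors' GCRMA expression values on the log2 scale, so that a difference of 1 is a 2-fold difference. A value of 4 was taken as the lower end of useful signal. Array medians lay between 2.49 and 2.51, and on every array 33.3% to 34.3% of all probe sets were at the table's minimum, 2.23. Bevacizumab and control arrays were compared with limma in a pair of fits, over all 18475 single-gene probe sets and over all 10233 genes with a mean of at least 4 across the 6 arrays. Calls are adjusted p-values under 0.05 by the Benjamini-Hochberg method, and those for the 8 genes come from the probe set fit unless the gene fit is named. Of markers listed for U87 and glioma cells, VIM averaged 15.17 ± 0.09 in bevacizumab tumours and 15.05 ± 0.04 in control tumours (SD, n = 3 each). The glial markers GFAP, S100B and OLIG2 were under 4 on all 6 arrays. VEGFA, the antibody's target, averaged 14.08 ± 0.27 in bevacizumab tumours and 12.68 ± 0.18 in control tumours (SD, n = 3 each). Its log2 fold change was 1.40 in the gene fit (limma adjusted p = 0.00609).

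Among the 33 probe sets, 14 had a mean of at least 4 and entered the test, from FGF1, FGF2, FGF7, FGFR1 and FGFR2. The other 19 were under 4 on all 6 arrays, and 8 of those were at the table's minimum on every array. In bevacizumab tumours FGF2 rose on both of its probe sets, and FGF7 rose on 1 of its 3 probe sets, the only 1 tested. FGF1 fell on 2 of its 3 probe sets, and FGFR1 rose on 1 of its 6 tested probe sets. In all, 4 of the tested probe sets were higher and 2 were lower. Over all probe sets tested, 7.43% were called higher and 7.96% lower, and 15.4% in all. The groups did not overlap on 7 of the 14, against 39.0% of all probe sets tested. Of the 14, 205782_at of FGF7 and 208240_s_at of FGF1 were under 4 on all arrays of 1 group, so that they had to differ to be tested; without them 3 of 12 were higher, 1 was lower, and 5 did not overlap. In the gene fit, where the brightest probe set stands for its gene, FGF2, FGF7 and FGFR1 were called higher, 3 of 5 tested. Without FGF7, which was tested only through its bevacizumab values, it was 2 of 4, against 9.09% of all genes called higher and 19.1% called in either direction. None of the 5 genes was called lower by limma in that fit, and 0 were lower at an unadjusted p under 0.05, against 9.97% of all genes called lower. The genes were chosen with earlier results of these data known, so these counts are not a test against the shares over all features.

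The bases upstream of the transcription start of FGF2 and FGF7 are given because these are the ligand genes that rose. Each stretch is the 250 bases before the annotated start on the plus strand, read 5′ to 3′ from RefSeq (build GRCh38.p14). FGF2 lies at chr4:122826581-122826830 and FGF7 at chr15:49422992-49423241. Capitals mark matches, on either strand, to the hypoxia response core (ACGTG or GCGTG), the GC box (GGGCGG), the AP-1 site (TGANTCA) or the TATA motif (TATAAA).
FGF2: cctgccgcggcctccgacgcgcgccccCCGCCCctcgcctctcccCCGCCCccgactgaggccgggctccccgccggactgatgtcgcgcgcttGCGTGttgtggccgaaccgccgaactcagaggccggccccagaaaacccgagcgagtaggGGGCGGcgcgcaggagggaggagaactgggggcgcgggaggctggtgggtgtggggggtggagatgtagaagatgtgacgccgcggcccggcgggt
FGF7: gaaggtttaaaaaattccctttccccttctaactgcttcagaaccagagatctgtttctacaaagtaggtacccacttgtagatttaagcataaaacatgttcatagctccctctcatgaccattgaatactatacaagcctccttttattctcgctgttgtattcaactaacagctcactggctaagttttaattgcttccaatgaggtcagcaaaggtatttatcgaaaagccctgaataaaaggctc
The FGF2 stretch was 75.2% G or C and held 1 GCGTG core, 152 to 156 bases before the start, and 3 GC boxes. The FGF7 stretch was 38.4% G or C and held none of these motifs. The median over 35116 such stretches in the table was 58.0% G or C. Either hypoxia response core was found in 43.2% of them, the GC box in 42.6%, the AP-1 site in 6.57% and the TATA motif in 10.7%. Hypoxia response cores and GC boxes were also found before starts of FGF5, FGFR3 and FGFRL1, the members with no detectable signal. A match describes the letters in this window and does not show that a factor binds.

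FGF2 rose on both of its probe sets. On 204422_s_at it read 8.65, 8.62 and 8.24 in the bevacizumab tumours, against 5.73, 6.46 and 6.67 in the control tumours. The groups did not overlap, and the lowest bevacizumab array stood well above the highest control array. The log2 fold change was 2.22 (SE 0.27, 95% interval 1.56 to 2.87, limma adjusted p = 0.00816), or 4.65-fold. On 204421_s_at it read 7.93, 7.79 and 7.47 in the bevacizumab tumours, against 6.10, 6.44 and 6.36 in the control tumours. Again every bevacizumab array was above every control array. The log2 fold change there was 1.43 (SE 0.16, 95% interval 1.04 to 1.82, limma adjusted p = 0.00682), or 2.69-fold. Both probe sets kept their call whichever of the 6 arrays was left out. The difference between 3′ and 5′ probe sets of ACTB, a sign of RNA quality, averaged 1.81 ± 0.16 in bevacizumab tumours and 1.38 ± 0.26 in control tumours (SD, n = 3 each; two-sided exact permutation p = 0.2, smallest possible 0.1). The same difference for GAPDH averaged -0.021 ± 0.034 in bevacizumab tumours and -0.116 ± 0.017 in control tumours (SD, n = 3 each; two-sided exact permutation p = 0.1, the smallest possible), and every bevacizumab array was above every control array. When the ACTB difference was added to the model, the log2 fold changes of 204422_s_at and 204421_s_at were 1.51 (limma adjusted p = 0.0814; 0.00363 to 0.0814 over the alternatives that keep all arrays) and 1.12 (limma adjusted p = 0.0900; 0.00323 to 0.0900), and 21 of all probe sets were called.

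FGF7 had a clear signal in bevacizumab tumours on 1 probe set, which was near the bottom of the scale in control tumours. On 205782_at it read 4.46, 6.20 and 6.14 on the bevacizumab arrays, against exactly the same value of 2.52 on all 3 control arrays. Bevacizumab 1 was markedly lower than the other bevacizumab arrays. Because every control array was under 4, the size is a lower bound: FGF7 was at least 3.03-fold higher, taking 4 as the control level. The fitted log2 fold change was 3.08 (SE 0.47, limma adjusted p = 0.0139), which depends on where the bottom of the scale lies. The probe set has a mean of 4.06 and passed the filter only through its bevacizumab values, so that it had to differ to be tested. The call was lost without control 1 (limma adjusted p = 0.0641), control 2 (adjusted p = 0.0560) or control 3 (adjusted p = 0.0518). As the 3 control values were the same, the log2 fold change stayed at 3.08 in these fits. The lost call therefore points to no particular control array. With values under 4 set to 4 the call was also lost (log2 fold change 1.60, limma adjusted p = 0.0725, and 0.00687 to 0.102 over the alternatives that keep all arrays).

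The other FGF7 probe sets stayed under 4. On 1555103_s_at FGF7 read 2.77, 2.95 and 2.24 in the bevacizumab tumours, against 2.23, 2.23 and 2.24 in the control tumours. On 1555102_at it reached at most 2.32. FGF7 has near-identical copies elsewhere in the genome, and signal from them cannot be told apart from that of FGF7. Fibroblasts are a usual source of FGF7. The 8 fibroblast markers averaged 12.01 to 12.33 on the bevacizumab arrays and 12.06 to 12.30 on the control arrays. Of these 8, none was called higher and 1, COL3A1, was called lower, against 9.97% of all genes called lower. The array targets human transcripts, and the implanted human cells were U87-EV cells, so these markers say little about mouse fibroblasts. The part of fibroblasts in the FGF7 difference was not tested.

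FGF1, which can activate all FGF receptors, was lower on 2 probe sets, while the third did not pass the test. On 1552721_a_at it read 5.92, 5.76 and 5.73 in the bevacizumab tumours, against 6.97, 6.39 and 7.02 in the control tumours. The groups did not overlap, and control 2 was the control array nearest to the bevacizumab values. FGF1 fell by 0.99 on the log2 scale there (SE 0.19, limma adjusted p = 0.0238). On 208240_s_at it read 3.43, 3.77 and 3.43 in the bevacizumab tumours, against 4.39, 4.43 and 4.64 in the control tumours. All 3 bevacizumab arrays were under 4, so this probe set was at least 1.40-fold lower (limma adjusted p = 0.0116). Its mean of 4.01 passed the filter only through the control values. With values under 4 set to 4, its log2 fold change was -0.49 (limma adjusted p = 0.0267; 0.00546 to 0.0867 over the alternatives that keep all arrays). On 205117_at, the brightest FGF1 probe set, FGF1 read 6.94, 7.12 and 6.38 in the bevacizumab tumours, against 7.15, 6.88 and 7.16 in the control tumours. These groups overlapped, and the log2 difference was -0.25 (95% interval -0.77 to 0.26, limma adjusted p = 0.441). With the mean of all 3 probe sets in the gene fit, FGF1 was called lower, with a log2 fold change of -0.73 (limma adjusted p = 0.0190).

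The call of 1552721_a_at held without bevacizumab 1 or control 2 and was lost without bevacizumab 2 (adjusted p = 0.0781), bevacizumab 3 (0.0649), control 1 (0.0894) or control 3 (0.0717), and that of 208240_s_at was lost without control 1 (adjusted p = 0.0517). Of 8 tested markers of mural cells, which wrap vessels, 3 were called lower in the same tumours (ACTA2, KCNJ8 and RGS5) and none higher, against 9.97% of all genes called lower. The other 5 did not pass, with log2 differences of 0.42 for MCAM, 0.30 for PDGFRB, 0.16 for CSPG4, -0.51 for NOTCH3 and -0.76 for ABCC9. KCNJ8 was under 4 on all bevacizumab arrays and passed the filter only through its control values, so that it had to differ to be tested. The mean of the whole list of 9, which includes the 3 called genes, was 6.38 to 6.97 on the bevacizumab arrays and 7.59 to 7.78 on the control arrays. The part of these markers in the FGF1 difference was not tested. With human probes, these markers say little about mural cells of the mouse host, and the cells that gave their signal were not determined. In bulk tumour RNA, fewer cells of a type and less RNA per cell cannot be told apart.

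FGF5, a ligand known for its role in the hair cycle, stayed under 4 on all arrays of its 3 probe sets. Its values ran from 2.44 to 3.50 over these probe sets and arrays. On 208378_x_at, 4 of the 6 arrays held exactly the same value, 3.26, and bevacizumab 2 and 3 read 2.92 and 3.50. No FGF5 signal was detectable at this level, and it was not tested.

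**Figure D1:**
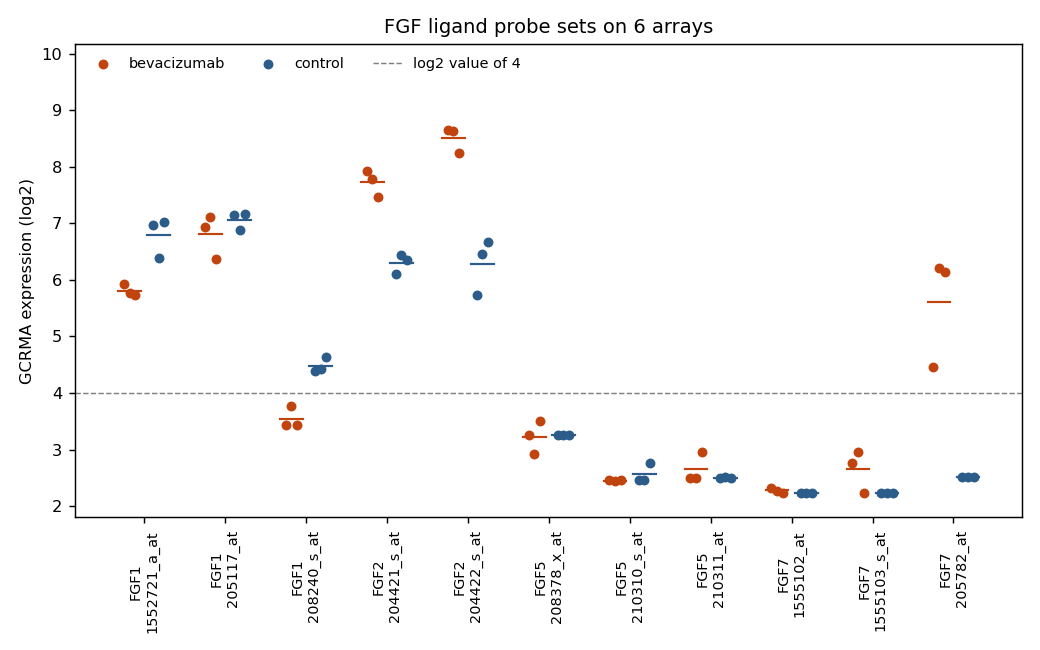
GCRMA expression (log2, vertical axis) of the 11 ligand probe sets, with bevacizumab arrays in orange and control arrays in blue to their right. Points are single arrays, short lines group means, and the dashed line is the value of 4. FGF2 and 205782_at of FGF7 are higher on all bevacizumab arrays, 1552721_a_at and 208240_s_at of FGF1 are lower, and FGF5 lies under 4.

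FGFR1 was the receptor gene with clear signal. It encodes a tyrosine kinase that binds FGF1 and FGF2 in its mesenchymal splice form. On 211535_s_at it read 10.50, 11.18 and 10.76 in the bevacizumab tumours, against 10.02, 9.98 and 9.79 in the control tumours. The groups did not overlap, and bevacizumab 2 was the highest array. The log2 fold change was 0.89 (SE 0.19, 95% interval 0.43 to 1.34, limma adjusted p = 0.0312), or 1.85-fold. This call held without bevacizumab 1 and was lost without bevacizumab 2 (adjusted p = 0.0520), bevacizumab 3 (0.0707), control 1 (0.0921), control 2 (0.0885) or control 3 (0.0947).

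The other tested FGFR1 probe sets moved less. On 222164_at FGFR1 read 8.77, 8.64 and 8.64 in the bevacizumab tumours, against 8.38, 8.36 and 8.58 in the control tumours. These groups did not overlap either, but the log2 difference of 0.24 did not pass (95% interval -0.01 to 0.49, limma adjusted p = 0.158). On 210973_s_at FGFR1 read 8.30, 8.85 and 8.70 in the bevacizumab tumours, against 8.36, 8.27 and 7.75 in the control tumours, and the groups overlapped. The log2 difference of 210973_s_at was 0.49 (limma adjusted p = 0.179), that of 226705_at 0.35 (adjusted p = 0.268) and that of 215404_x_at 0.24 (adjusted p = 0.277). On 207937_x_at, 5 of the 6 arrays held exactly the same value of 6.56, and control 3 read 6.45, so this probe set carried almost no information about the groups. The log2 difference was above 0 on all 6 tested probe sets, which share a gene and are not independent. With the mean of all 7 probe sets in the gene fit, FGFR1 differed by 0.32 (limma adjusted p = 0.0562). The seventh, 207822_at, ran from 2.71 to 2.84 and was not tested.

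FGFR2, the receptor whose epithelial form binds FGF7, showed no difference that passed the test. Of its 11 probe sets, 9 were under 4 on all arrays, and 5 of those were at the table's minimum throughout. On 211399_at it read 4.98, 4.97 and 5.03 in the bevacizumab tumours, against 4.98, 5.07 and 4.96 in the control tumours. The arrays were close to each other in both groups, and the log2 difference was -0.01 (95% interval -0.21 to 0.18, limma adjusted p = 0.929). On 208229_at FGFR2 read 5.23, 4.09 and 4.44 in the bevacizumab tumours, against 4.43, 4.55 and 4.90 in the control tumours. Those groups overlapped, with a log2 difference of -0.04 (95% interval -0.79 to 0.72, limma adjusted p = 0.948).

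FGFR3, the receptor tyrosine kinase known for its part in limiting bone growth, was at the lowest value of the table on all arrays of both probe sets. FGFRL1, which binds FGF ligands but lacks the kinase domain, read 3.23, 3.23 and 3.53 in the bevacizumab tumours on 223321_s_at, against 3.23, 3.23 and 3.05 in the control tumours. Its other probe set was at the lowest value throughout. Neither gene had detectable signal on these arrays, and neither was tested.

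**Figure D2:**
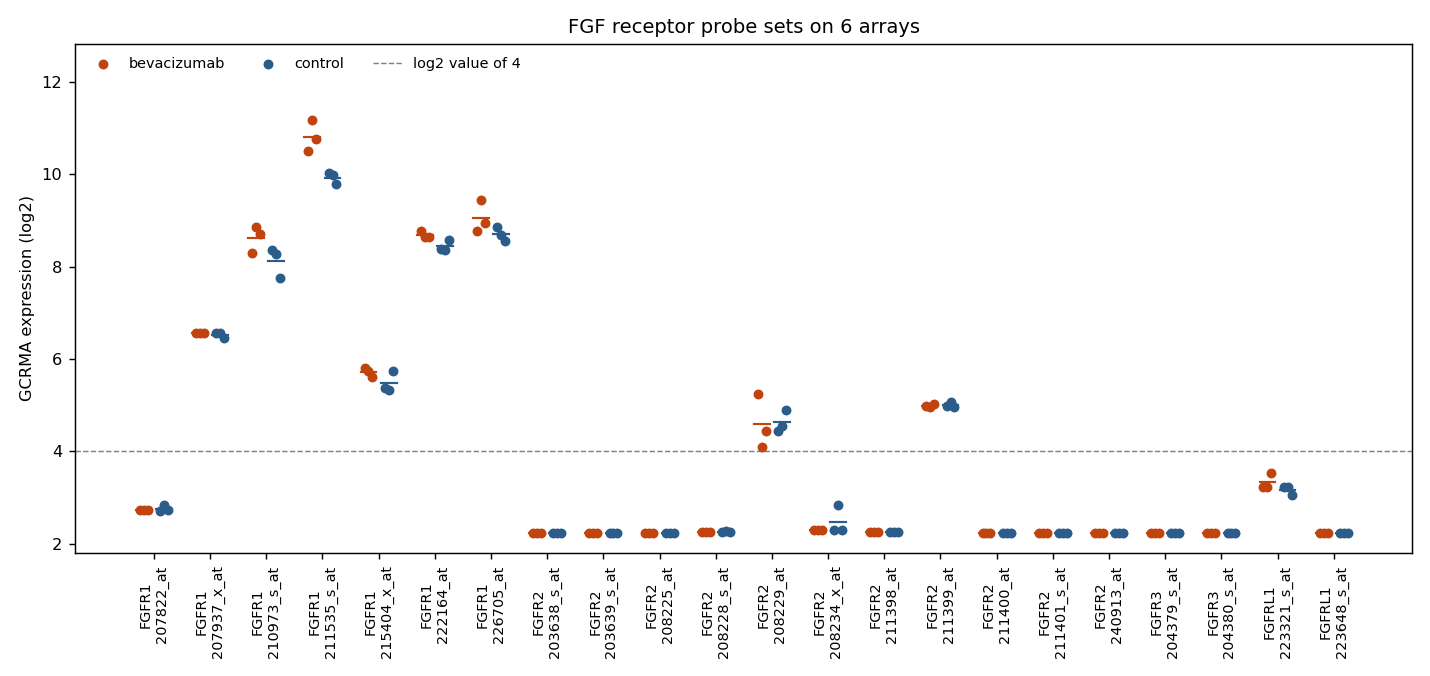
GCRMA expression (log2, vertical axis) of the 22 probe sets of FGFR1, FGFR2, FGFR3 and FGFRL1, with bevacizumab arrays in orange and control arrays in blue to their right. Points are single arrays, short lines group means, and the dashed line is the value of 4. FGFR1 has 6 probe sets above the line and FGFR2 has 2, while FGFR3 and FGFRL1 lie below it.

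**Figure D3:**
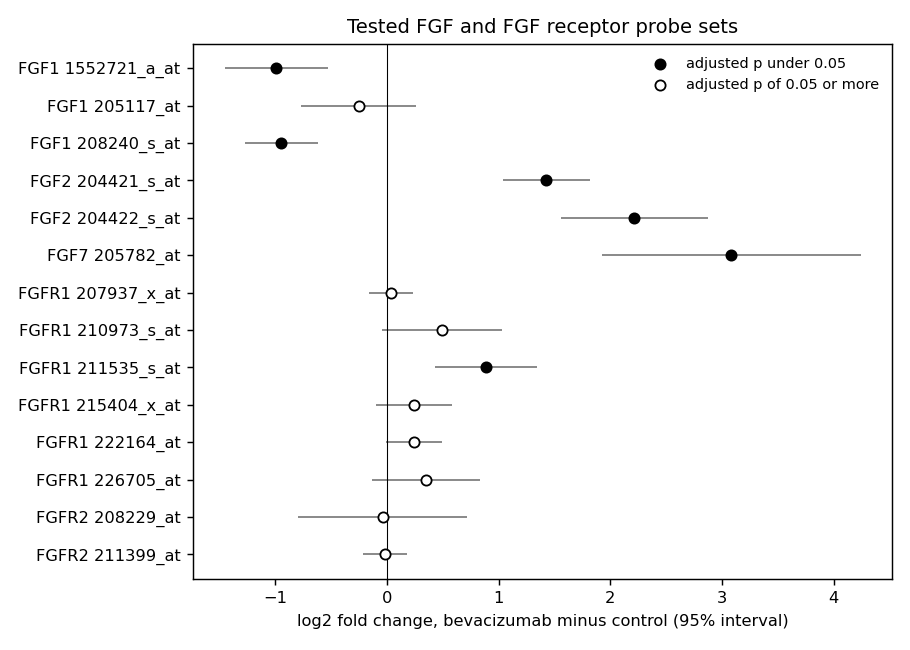
Log2 fold change, bevacizumab minus control, of the 14 tested probe sets, with 95% intervals from the limma fit over all probe sets. Filled points passed the threshold: 4 were higher (FGF2 on both probe sets, FGF7, and 211535_s_at of FGFR1) and 2 were lower (FGF1).

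The genes whose values most resembled those of the members with the largest fold changes were sought by the root mean square difference over the 6 arrays, each gene centred on its own mean. Nearest to FGF2 were PTX3, a secreted pentraxin (difference 0.12), CA12, a carbonic anhydrase (0.15), and ADM, which encodes adrenomedullin (0.17). Nearest to FGF7 were SLC6A8, the creatine transporter (0.22), MXRA5, a matrix protein (0.30), and BEND5 (0.37). BEND5, like FGF7, was under 4 on all 3 control arrays, so both were among the genes searched only through their bevacizumab values. MXRA5 was under 4 on 1 control array. SLC6A8 averaged 10.44 ± 0.71 in bevacizumab tumours and 7.13 ± 0.02 in control tumours (SD, n = 3 each). PTX3 averaged 13.62 ± 0.11 in bevacizumab tumours and 11.53 ± 0.37 in control tumours (SD, n = 3 each). With 6 arrays in 2 groups such likeness mostly states that the genes differ between the groups by a like amount.

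The wider FGF pathway was read from 8 lists with 129 genes, of which 118 had a probe set analysed here and 74 were bright enough for the gene fit. Of these 74, 11 rose and 3 fell, and 60 did not pass; without BGN, left out after the values were seen, 10 of 73 rose. This compares with 9.09% of all genes called higher and 9.97% called lower. In either direction, 14 of the 74 were called, against 19.1% of all genes. The lists were chosen with earlier results of these data known, so their counts are not a test against all genes. The median log2 fold change was 0.13 over the 74 genes and -0.01 over all genes tested. Of the 14 called genes, 7 kept their call whichever of the 6 arrays was left out: JUN, SRF, STAT3, MAP2K1, SDC4, GPC6 and EXT1. With the ACTB difference as a covariate 0 of the 74 were called by limma, while 14 were higher and 5 lower at an unadjusted p under 0.05.

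Among 18 other ligands, 3 were tested and 1 was called higher, against 9.09% of all genes called higher and 9.97% called lower. FGF18, a ligand of bone and lung development, averaged 7.77 ± 0.73 in bevacizumab tumours and 6.23 ± 0.03 in control tumours (SD, n = 3 each). It rose by 1.55 on the log2 scale (SE 0.35, limma adjusted p = 0.0312). Leaving out control 1, 2 or 3 each ended the FGF18 call (adjusted p up to 0.101). FGF13, an intracellular relative that does not signal through the receptors in the usual way, differed by -0.64 (limma adjusted p = 0.149), and FGF6 by 0.02. FGFR4 and the coreceptors KL and KLB, which serve hormone-like FGFs, were under 4 on all arrays. Of 10 carriers and receptor-binding membrane proteins, 5 were tested and SCUBE3 was called, falling by 1.51 (SE 0.31, limma adjusted p = 0.0253). The SCUBE3 call was lost without bevacizumab 2 or any 1 of the controls (adjusted p up to 0.0918). FGFBP1, a secreted carrier that releases FGF2 from heparan sulfate, was at the lowest value on every array.

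Heparan sulfate proteoglycans are the cell surface and matrix partners of FGF ligands. Their list held 9 tested genes, but 1 of them, BGN, encodes biglycan, which carries chondroitin or dermatan sulfate and not heparan sulfate. Of the other 8, 3 rose and none fell, with a median log2 fold change of 0.62. Over all genes tested, 9.09% were called higher and 9.97% lower, and the median was -0.01. HSPG2, which encodes the basement membrane proteoglycan perlecan, rose by 1.65 (SE 0.33, limma adjusted p = 0.0228), with 8.76 ± 0.62 in bevacizumab tumours and 7.11 ± 0.30 in control tumours (SD, n = 3 each). The cell surface proteoglycans GPC6 and SDC4 rose by 0.86 (limma adjusted p = 0.00925) and 0.81 (adjusted p = 0.00559). GPC1, another cell surface proteoglycan, differed the other way, by -0.74 with groups that did not overlap (limma adjusted p = 0.0641). BGN rose by 0.51 (limma adjusted p = 0.0438). HSPG2 lost its call without bevacizumab 3 or any 1 of the controls (adjusted p up to 0.0838), and BGN without any 1 array except bevacizumab 1 (adjusted p up to 0.135). Of 16 tested enzymes of heparan sulfate synthesis and editing, EXT1, a polymerase of the chain, rose by 0.97 (SE 0.14, limma adjusted p = 0.00892). The other 15 did not pass, among them XYLT1 (0.51), EXTL2 (-0.53) and HS3ST3A1 (0.75).

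The counts of the next 3 lists stand beside 9.09% of all genes called higher and 9.97% called lower. Of 18 tested adaptors and relays 2 rose: STAT3, a transcription factor, by 0.86 (limma adjusted p = 0.00609) and MAP2K1, the kinase upstream of ERK, by 0.77 (adjusted p = 0.00780). CRKL (0.30) and SOS1 (0.50) did not pass. Of 12 tested feedback inhibitors 2 rose: CBLB, a ubiquitin ligase, by 0.79 (limma adjusted p = 0.0133) and IL17RD, a membrane inhibitor of FGF signalling, by 0.73 (adjusted p = 0.0443). CBLB lost its call without control 1 or control 2 (adjusted p up to 0.0607), and IL17RD without any 1 array except bevacizumab 3 (adjusted p up to 0.137). DUSP5, an ERK phosphatase, differed by 0.76 (limma adjusted p = 0.0507) and SPRY2, a Sprouty inhibitor, by -0.61 (adjusted p = 0.0558). Of 11 tested transcription factors and targets listed for FGF and ERK signalling, JUN rose by 0.66 (limma adjusted p = 0.00670). SRF fell by 0.65 (limma adjusted p = 0.00714) and EGR3 fell by 1.17 (adjusted p = 0.0223). EGR3 lost its call without bevacizumab 2, bevacizumab 3, control 1 or control 3 (adjusted p up to 0.0675). EGR1 differed by -0.64 (limma adjusted p = 0.102).

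**Figure D4:**
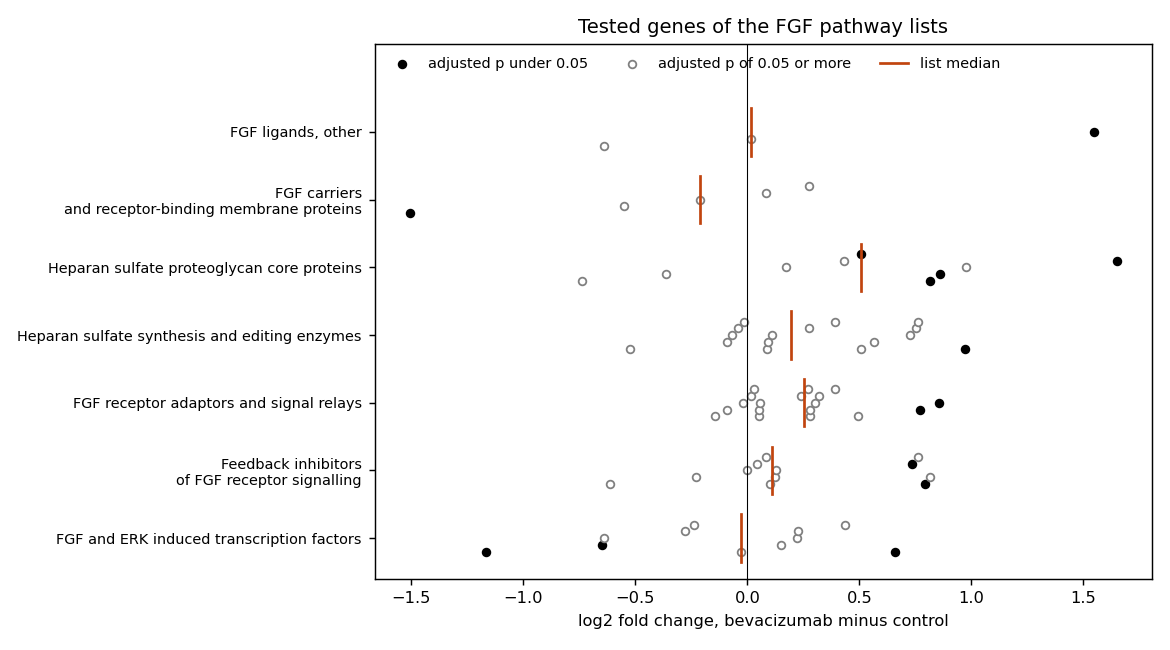
Log2 fold change, bevacizumab minus control, of the 74 tested genes of the FGF pathway lists, 1 row per list with tested genes. Filled points passed the threshold in the limma fit over all genes, open points did not, and orange bars are list medians. The rows hold 11 genes called higher and 3 called lower.

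Markers of other cells that such tumours can hold were mostly under 4. Of 10 endothelial markers 8 were under 4 on all arrays, among them CDH5, VWF and KDR, and none was called (means of the list 3.19 to 3.26 on bevacizumab arrays and 3.17 to 3.22 on control arrays). Of 7 macrophage markers 5 were under 4, and ADGRE1 was called lower, with 8.54 ± 0.42 in bevacizumab tumours and 9.46 ± 0.13 in control tumours (SD, n = 3 each). The mean of the 7 was 3.66 to 3.77 on bevacizumab arrays and 3.87 to 3.89 on control arrays. Of 4 keratinocyte markers 3 were under 4 and none was called (means of the list 4.61 to 4.68 on bevacizumab arrays and 4.63 to 4.67 on control arrays). All 5 adipocyte and all 6 skeletal muscle markers were under 4. Among 6 tested glioma and U87 markers CHI3L1 and TGFBI were called higher and NES lower. Over all genes tested, 9.09% were called higher and 9.97% lower. NES averaged 9.68 ± 0.17 in bevacizumab tumours and 10.86 ± 0.23 in control tumours (SD, n = 3 each), while the mean of all 10 markers of that list was 9.15 to 9.24 on bevacizumab arrays and 8.90 to 8.94 on control arrays. With human probes, these values say little about mouse host cells.

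**Figure D5:**
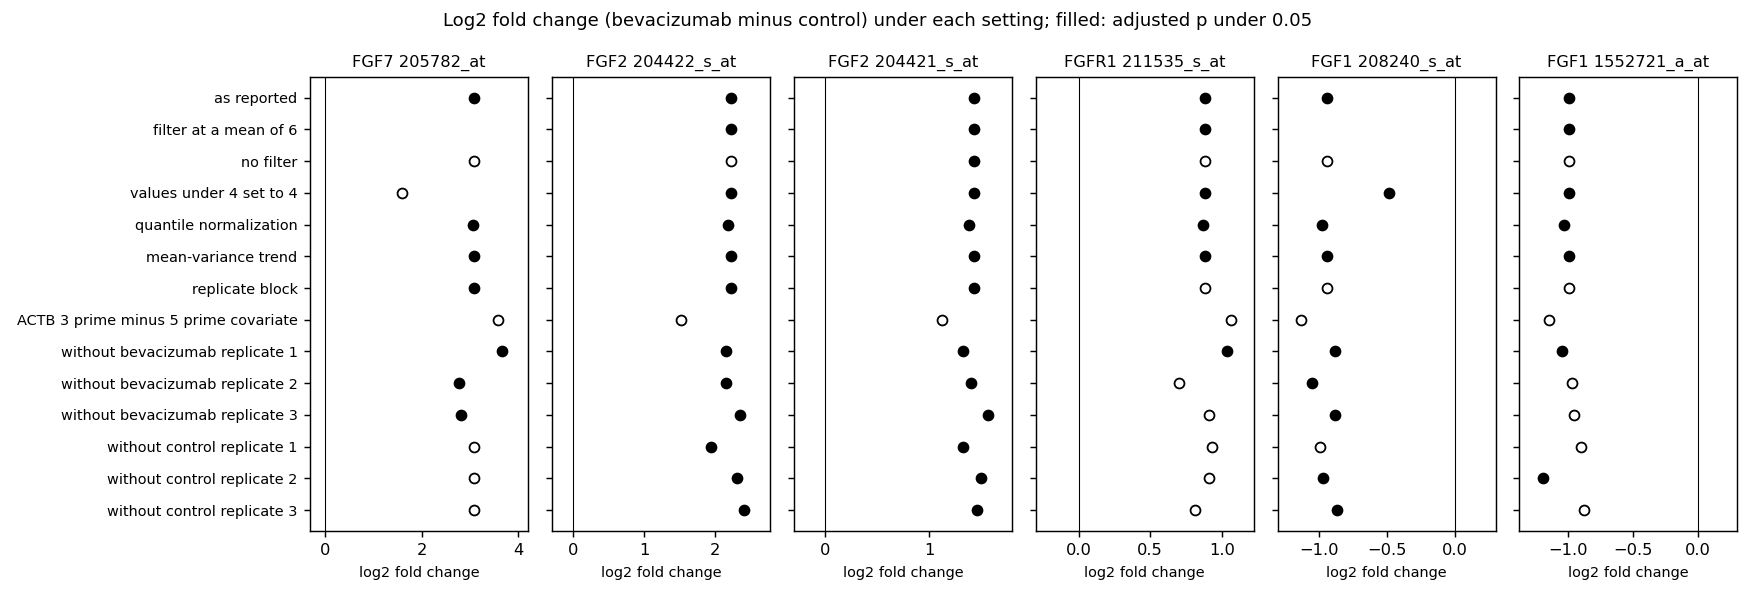
Log2 fold change, bevacizumab minus control, of the 6 called probe sets under each setting of the probe set fit, 1 panel per probe set. Filled points have an adjusted p under 0.05 and open points do not. No setting turned a direction of these 6, though only quantile normalization and the ACTB covariate could have done so. Of the FGF2 probe sets, 204421_s_at lost its call with the ACTB covariate only, and 204422_s_at with the covariate and with no filter on dim probe sets.

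The direction of the 6 called probe sets was the same in every setting that tested them, but most settings could not have turned it. The filters, the variance trend and the replicate block leave the fold change as it was. As the groups did not overlap on these probe sets, neither leaving out 1 array nor setting values under 4 to 4 can turn it. Only quantile normalization and the ACTB covariate could have done so. A filter at a mean of 6 left out 205782_at of FGF7 and 208240_s_at of FGF1. With the ACTB difference as a covariate all 6 lost their call (limma adjusted p = 0.0814 to 0.143). The fold change of FGF7 was then 3.58 on the log2 scale, that of FGFR1 on 211535_s_at 1.06, and those of FGF1 on 1552721_a_at and 208240_s_at -1.15 and -1.14. With no filter on dim probe sets, which adds more features to the adjustment, 204421_s_at of FGF2 kept its call and the other 5 had adjusted p-values of 0.0609 to 0.152.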

How the data were processed

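Total RNA from bevacizumab and control xenografts was measured on single-colour Affymetrix arrays, 3 per group. The authors deposited GCRMA values on the log2 scale, made with GCOS 1.1.1.052 and GCRMA per the submitters' processing notes. The log2 scale was inferred from the values (2.23 to 15.99). They were used as deposited. Scanner files and array dates were not used here, so no batch was tested, and the number of arrays limits the precision.

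Of 54675 probe sets, 41097 carried 1 gene symbol and 1801 several. Differences were tested with limma 3.58.1 in R 4.3.3 (lmFit, eBayes, no covariate, two-sided, Benjamini-Hochberg), for probe sets and for genes with a mean of at least 4. The brightest probe set stood for each of 19775 genes. The procedure was tested on simulated data. Members and lists were chosen with earlier results of these data known, so their counts beside the shares over all features are descriptions and not tests. Named are all 8 genes, VEGFA, up to 4 genes per pathway list with the smallest p, and the 3 genes most like each of 2 members; markers, and FGFR4, KL, KLB, FGFBP1, GPC1 and list members counted as called, were named after their values were seen.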

Additional observations from a re-analysis of the deposited data

How the results depend on the processing

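The 33 probe sets gave 4 higher and 2 lower calls. With no filter these counts were 1 and 0, with the ACTB covariate 0 and 0 (5 and 2 at an unadjusted p under 0.05 by limma), with the replicate block 3 and 0 (4 and 2 unadjusted), and with a filter at 6 there was 1 lower. Excluding the 2 probe sets under 4 on all arrays of 1 group, a choice made after seeing the data, gave 3 and 1. Leaving out 1 array gave 2 to 4 higher and 0 to 2 lower. In the gene fit, the 3 higher calls among 5 tested genes became 1 among 8 with no filter and 0 with the covariate (3 unadjusted). Leaving out 1 array gave 1 to 3 higher and 0 lower. With the mean of all probe sets of a gene, 3 genes were tested, of which 1 was higher and 1 lower. FGF7 and FGFR2 were not tested in that setting. Over all probe sets the 2842 calls became 624 with no filter, 1041 with the block and 21 with the covariate, and 556 to 2783 without 1 array. Over all genes the 1950 calls became 598, 904 and 24, and 558 to 2074 without 1 array. Pathway genes called higher numbered 6 with no filter and 0 with the covariate, and 6 to 15 without 1 array. Those called lower numbered 5 with a filter at 6, 6 with quantile normalization, 5 with a variance trend, 0 with the covariate, and 1 to 5 without 1 array. FGFR2, not called in any setting, changed sign with the covariate (0.030) and without control 2 (0.020), with a range of -0.033 to 0.020 over the fits without 1 array. The cause of these shifts was not tested. Without a filter, many dim features enter both the fit and the adjustment, and their effects were not separated. Values under 4 limit what can be seen of FGF5, FGF7, FGFR3 and FGFRL1. Arrays with the same replicate number deviated from their group means with correlations of -0.05 to -0.01 over genes, so the block does not rest on shown pairs. Bevacizumab and control arrays with different numbers gave correlations of -0.21 to 0.23.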

Other observations

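NUDT6, which lies antisense to the 3′ end of FGF2, was looked up after the FGF2 values were seen. It averaged 7.31 ± 0.18 in bevacizumab tumours and 7.26 ± 0.14 in control tumours (SD, n = 3 each), a log2 difference of 0.05 (95% interval -0.27 to 0.36, limma adjusted p = 0.819).

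The exactly repeated value of 207937_x_at, annotated to FGFR1, was shared by 5 of 6 arrays at 6.56, far above the lowest value of the table. Among the 18475 probe sets tested, 193 (1.04%) held the same value on at least 5 arrays, and 991 (5.36%) on at least 3, as 205782_at of FGF7 did on the 3 control arrays.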
